A study of Mus musculus with 4 samples.

Results

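Pallial identity transcription factors are the regulators that give the dorsal part of the embryonic telencephalon, the pallium, its character as future cerebral cortex. The set described here holds 9 genes chosen by name: Emx1, Emx2, Lhx2, Lhx9, Gli3, Dmrta1, Dmrta2, Dmrt3 and Otx1. All 9 are listed among the 22770 genes of the deposited expression table. Their RNA was measured in dissected mouse cortex at embryonic day 16.5 in 2 libraries from embryos carrying Pax6 sey/sey, a homozygous Pax6 mutation, and in 2 libraries from wild-type littermates. Both groups had a mixed genetic background of C57BL/6J, 129S6 and CD1, and no other allele or agent is named in the labels. The Sey allele is carried in every tissue from conception, so it is no cortex-restricted deletion. The labels do not state whether the libraries are from different embryos. The 2 mutant libraries differ in sex-linked genes, given below, and so are not from the same embryo, while for the wild types this is not known. The limma p-values rest on the spread between these libraries, drawn for each gene toward that of other genes of similar level. This spread may be partly technical.

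Pallial progenitors line the ventricle of the cortex. The factors of this set are graded across that sheet: Emx2, Lhx2, and the Dmrt genes are known to be highest medially, toward the cortical hem, while Pax6 is highest laterally, toward the antihem at the border with the subpallium. Gli3 restrains ventral hedgehog signalling and is needed for the hem, and Lhx2 holds back hem fate within the cortical field, and Emx2 takes part in setting cortical area pattern. Emx1 is used as a marker of the pallial lineage, since it stays on in progenitors and in glutamatergic neurons derived from them. Dmrta2 and Dmrt3 are known to act with Pax6 and Emx2 in keeping ventral genes such as Gsx2 off in the pallium.

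Promoter sequences are shown for Emx1 and Emx2 and for Lhx2 and Lhx9, because within each pair of related genes the measured RNA differed in direction or size between genotypes. RefSeq promoter windows on GRCm38.p6, from 250 bases before to 50 bases after the start given by RefSeq and read along the gene's own strand, were held for 8 of the 9 members. The printed windows of Emx1, Emx2 and Lhx9 lie wholly inside the GENCODE gene spans given below. Their RefSeq starts are thus downstream of the GENCODE gene start, and these windows may hold transcribed sequence. Capitals mark matches on either strand to the GC box GGGCGG, the CCAAT box CCAAT and the homeodomain motif TAATTA, with overlapping matches counted separately.
Emx1 (chr6:85187681-85187980, plus strand): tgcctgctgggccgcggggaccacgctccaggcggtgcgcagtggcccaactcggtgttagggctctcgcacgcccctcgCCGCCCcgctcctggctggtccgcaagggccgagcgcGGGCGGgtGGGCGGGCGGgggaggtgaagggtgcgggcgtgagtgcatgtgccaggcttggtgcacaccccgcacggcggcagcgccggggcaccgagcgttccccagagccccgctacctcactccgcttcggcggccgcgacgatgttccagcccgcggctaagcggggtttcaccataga
Emx2 (chr19:59458440-59458739, plus strand): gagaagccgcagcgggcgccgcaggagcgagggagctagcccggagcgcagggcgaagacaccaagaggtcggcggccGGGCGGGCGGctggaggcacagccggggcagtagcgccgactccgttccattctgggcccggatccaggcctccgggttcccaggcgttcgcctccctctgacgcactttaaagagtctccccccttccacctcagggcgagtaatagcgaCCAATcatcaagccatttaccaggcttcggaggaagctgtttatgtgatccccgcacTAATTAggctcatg
Lhx2 (chr2:38339031-38339330, plus strand): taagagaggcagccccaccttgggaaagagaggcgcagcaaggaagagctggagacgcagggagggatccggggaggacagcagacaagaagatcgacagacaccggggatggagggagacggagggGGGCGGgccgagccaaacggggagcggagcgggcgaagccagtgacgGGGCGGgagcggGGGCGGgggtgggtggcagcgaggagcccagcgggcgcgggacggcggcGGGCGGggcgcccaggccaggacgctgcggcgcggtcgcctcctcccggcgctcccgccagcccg
Lhx9 (chr1:138842395-138842694, minus strand): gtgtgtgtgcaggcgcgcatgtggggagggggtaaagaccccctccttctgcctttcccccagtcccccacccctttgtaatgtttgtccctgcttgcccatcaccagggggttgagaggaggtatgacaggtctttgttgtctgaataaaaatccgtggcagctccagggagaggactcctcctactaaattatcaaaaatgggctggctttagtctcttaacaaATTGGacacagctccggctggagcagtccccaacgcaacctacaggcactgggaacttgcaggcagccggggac
The Emx1 window held 4 GC boxes and no CCAAT or TAATTA match, and its GC content was 74.0%. The Emx2 window held 2 GC boxes, 1 CCAAT box and 1 TAATTA match, at a GC content of 64.3%. RefSeq gives Lhx2 2 windows. The printed one, at the upstream start, held 4 GC boxes at a GC content of 74.7%, and the other, on chromosome 2 from 38351058 to 38351357, held 0 GC boxes at a GC content of 69.3%. The Lhx9 window held 1 CCAAT box, no GC box and a GC content of 55.3%. Across 32851 windows of the same length, 35.7% held a GC box, 37.4% a CCAAT box and 5.29% a TAATTA match, and the median GC content was 52.7%. A match is a description of letters, and no binding was measured here.

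In the mutants Emx1 fell, Lhx2 and Gli3 had lower mean values, Emx2, Otx1 and Dmrta2 had slightly higher ones, and the low-level member Lhx9 was several times as high. Emx1 alone passed the test, at a mean of 16.4 ± 1.06 FPKM in mutants and 29.4 ± 0.665 FPKM in wild types (SD, n = 2 each). FPKM counts sequenced fragments relative to exon length and to the size of the library, so levels of different genes can be set side by side. Genotype was tested with limma on log2(FPKM + 0.5) over the 15399 genes that reached 0.5 FPKM in 2 libraries or more, and a gene was called at a Benjamini-Hochberg adjusted p under 0.05. Of the 9 members 7 passed that filter, and of these 1 was called lower and 0 higher, while 3.48% of all tested genes were called, 1.46% lower and 2.02% higher. An unadjusted limma p under 0.05 was reached by 19.5% of all tested genes. Lhx9 passed the filter only through its mutant values, so the count over tested members is not evidence about the set. In bulk tissue, fewer cells of a type and less RNA per cell cannot be told apart, which holds for every value given here.

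**Figure D1:**
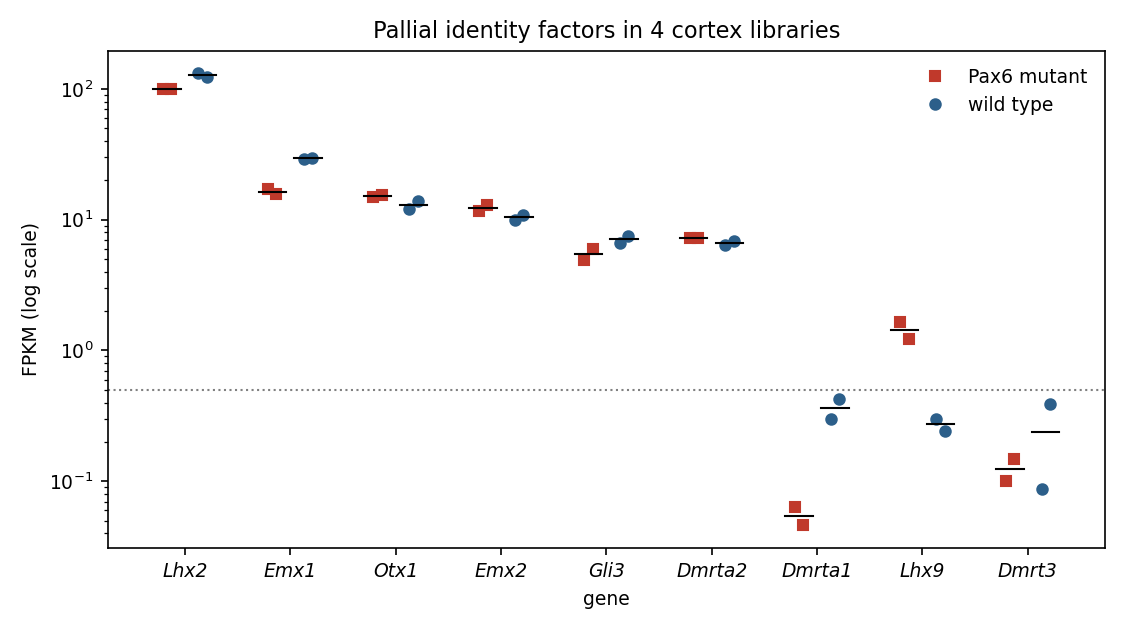
FPKM on a log scale (vertical axis) of the 9 genes in each library, Pax6 mutants as squares left of wild types as circles, with group means (n = 2) as black lines and a dotted line at the filter of 0.5 FPKM. Emx1 lies at 17.2 and 15.7 FPKM in mutants and at 29.0 and 29.9 FPKM in wild types, while Lhx9 lies above the dotted line in mutants and below it in wild types.

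The members ranged from abundant to barely detected. In mutants the order of mean FPKM was Lhx2, Emx1, Otx1, Emx2, Dmrta2, Gli3, Lhx9, Dmrt3 and Dmrta1, with no overlap between the ranges of neighbours. In wild types it was Lhx2, Emx1, Otx1, Emx2, Gli3, Dmrta2, Dmrta1, Lhx9 and Dmrt3, where Gli3 overlapped Dmrta2, Dmrta1 overlapped Lhx9, and Lhx9 overlapped Dmrt3. Emx1 and Otx1 stood close together in mutants, at means of 16.4 and 15.2 FPKM, and wide apart in wild types, at 29.4 and 13.0 FPKM. The summed FPKM of all 9 genes was 158 in each mutant library, against 196 and 193 in the wild types. Lhx2 made up 63.4% and 62.9% of that sum in mutants and 67.0% and 63.6% in wild types, and Emx1 made up 10.9% and 9.90% in mutants and 14.7% and 15.5% in wild types.

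Both groups stood apart for most members. The mutant values lay wholly below the wild-type values for 4 members and wholly above for 4, and overlapped for Dmrt3. Dmrta1, among the lower ones, and Dmrt3 were under the filter. Among the 15399 genes that passed it, a set without these 2 members, the groups did not overlap for 51.6%, in equal shares of 25.8% below and 25.8% above, and no test of the members against that share was made.

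Emx1 codes for a homeodomain factor of pallial progenitors and their neurons. The gene (ENSMUSG00000033726) is protein-coding, has 3 exons and lies on the plus strand of chromosome 6 from 85187438 to 85204462 in GRCm38, with no other annotated gene over it. It was at 17.2 and 15.7 FPKM in mutants, against 29.0 and 29.9 FPKM in wild types. Both mutant values were lower than both wild-type values, and the difference between means was far wider than the SD of either group. The mean fell by 44.2%, a log2 fold change of -0.83 (SE 0.09, 95% interval -1.05 to -0.60, limma adjusted p = 0.0224), and 0.916% of tested genes had a smaller p. The direction was the same in all 12 alternatives tried. It could not turn when 1 library was left out, since the groups did not overlap. The filter, trend and block settings leave the fold change itself as it is. The call was lost when any 1 library was left out, with limma adjusted p of 0.0789 without mutant library 1, 0.134 without mutant library 2, 0.163 without wild-type library 1 and 0.185 without wild-type library 2. It was also lost with no filter on low values (adjusted p = 0.0626) and without the mean-variance trend (0.0746). In the authors' deposited table the p-value for Emx1 was 0.0793, from a test that is not stated.

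The tested genes with mean FPKM of at least 5 whose values over the 4 libraries were nearest to those of Emx1 were Ppp1r16b, Tbr1 and Carmil3. Nearness was the Euclidean distance between mean-centred log2(FPKM + 0.5) values, and 9333 genes were compared over only 4 libraries. Tbr1, a T-box factor of early-born cortical neurons, was at 65.5 and 59.3 FPKM in mutants and at 111 and 117 FPKM in wild types, at a distance of 0.0513. Ppp1r16b was at 6.36 and 5.95 FPKM in mutants and at 10.7 and 11.1 FPKM in wild types, at a distance of 0.0507. Their log2 fold changes were -0.87 for Tbr1, -0.78 for Ppp1r16b and -0.80 for Carmil3, beside -0.83 for Emx1. The genes were picked by these same values, so similar fold changes follow from the choice.

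Emx2, the closest relative of Emx1, codes for a homeodomain factor that is highest in medial and caudal progenitors. It was at 11.7 and 12.96 FPKM in mutants, against 10.01 and 10.9 FPKM in wild types. Both mutants lay above both wild types, by less than the mutants differed from each other at the nearest values, and the gene was not called (log2 fold change 0.23, SE 0.11, 95% interval -0.06 to 0.52, limma adjusted p = 0.353). Emx2 (ENSMUSG00000043969) lies on the plus strand of chromosome 19 from 59458372 to 59465357. It shares 264 exon bases with the antisense gene Emx2os, and strand use in counting is not stated, so reads of both cannot be told apart there. Emx2os itself was low, at 0.843 and 0.629 FPKM in mutants and at 0.505 and 0.745 FPKM in wild types, with overlapping groups.

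Emx1 and Emx2 were thus unequal in their change. Within each library the ratio of Emx1 to Emx2 FPKM was 1.47 and 1.21 in mutants, against 2.89 and 2.74 in wild types. On the log2(FPKM + 0.5) scale the ratio averaged 0.40 in mutants and 1.45 in wild types, a difference of -1.05. By an exact two-sided permutation test p was 0.33, and 2 against 2 libraries allow no smaller value. A single scaling factor per library leaves the FPKM ratio as it is, and with quantile normalization the log2 difference was -1.06.

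Lhx2 codes for a LIM-homeodomain factor required for cortical identity and was the highest member in every library. The values were 99.99 and 99.5 FPKM in mutants, against 132 and 123 FPKM in wild types. The mutant libraries were nearly equal and both lay below both wild types. The mean changed by -21.6%, a log2 fold change of -0.35 (SE 0.06, 95% interval -0.50 to -0.19), and the limma adjusted p of 0.0562 missed the threshold. Over the alternatives the adjusted p lay between 0.0518 and 0.258, and the log2 fold change between -0.40 and -0.30. In the authors' deposited table the p-value for Lhx2 was 0.0850.

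Lhx2 (ENSMUSG00000000247) lies on the plus strand of chromosome 2 from 38339281 to 38369733 and has 8 exons. Its span holds the antisense genes Gm27197 and Gm13584, which share no exon bases with it. Gm27197 was at 4.58 and 2.33 FPKM in mutants and at 8.45 and 6.49 FPKM in wild types (log2 fold change -1.06, limma adjusted p = 0.171). Gm13584 was at 2.07 and 3.38 FPKM in mutants and at 2.04 and 1.93 FPKM in wild types (0.34, adjusted p = 0.532). Neither was called. The genes nearest to Lhx2 by the distance used above were Abhd4, Coq8b and Bckdhb, each with a log2 fold change between -0.37 and -0.32. This likeness too follows from the choice.

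Lhx9 codes for a LIM-homeodomain factor close to Lhx2 that is known from medial pallium, diencephalon and the early outer layer of the cortex. It was at 1.65 and 1.22 FPKM in mutants, against 0.301 and 0.244 FPKM in wild types. Both mutants were several times as high as both wild types, with means of 1.43 ± 0.309 and 0.273 ± 0.0405 FPKM (SD, n = 2 each) and a ratio of means of 5.26. The log2 fold change was 1.32 (SE 0.26, 95% interval 0.65 to 1.99), and the limma adjusted p of 0.0737 missed the threshold. It ranged from 0.93 with a pseudocount of 1 to 2.03 with a pseudocount of 0.1, and the adjusted p from 0.0724 to 0.292 over the alternatives. In the authors' deposited table the p-value for Lhx9 was 0.622. The wild-type values rest on few fragments: if the most frequent low value of a library is taken as 1 fragment, Lhx9 had about 128 and 124 in mutants and about 26.8 and 16.4 in wild types. Lhx9 (ENSMUSG00000019230) lies on the minus strand of chromosome 1 from 138825186 to 138848577, with no other annotated gene over it.

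The ratio of Lhx2 to Lhx9 was lower in mutants, with log2 fold changes of -0.35 for Lhx2 and 1.32 for Lhx9, neither called. It was 60.5 and 81.8 in FPKM in mutants, against 437 and 503 in wild types. The log2 ratio of FPKM + 0.5 averaged 5.70 in mutants and 7.37 in wild types, a difference of -1.66 (exact two-sided permutation p = 0.33, the smallest possible here). With a pseudocount of 0.1 the difference was -2.38 and with 1 it was -1.28.

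Markers of cells and regions that also express Lhx9 were measured beside it. In the Cajal-Retzius list 7 of 9 genes were tested, 2 rose and 0 fell: Reln, the gene of the extracellular protein reelin, at 68.2 and 79.0 FPKM in mutants and 47.1 FPKM in each wild type, and Cacna2d2, a calcium channel subunit gene. The summed FPKM of this list was 103 and 117 in mutants, against 71.3 and 68.0 in wild types. The hippocampal list, which includes Lhx9, summed to 36.9 and 35.9 FPKM in mutants and to 24.6 and 20.8 FPKM in wild types, and 1 of its 7 tested genes rose (Nrp2, a semaphorin receptor gene, log2 fold change 1.20). Prox1, the homeodomain factor of dentate granule cells and of many interneurons, was at 6.34 and 5.35 FPKM in mutants and at 2.35 and 1.38 FPKM in wild types (limma adjusted p = 0.0584). Of 10 thalamic and diencephalic genes, which also include Lhx9, 5 were tested and limma called 0. An unadjusted limma p under 0.05 was reached by 3 of these 5, beside 19.5% of all tested genes. Lhx9 and Barhl2 are among the 3 and passed the filter only through their mutant values, so this count is not evidence about the list. The 10 genes summed to 23.7 and 31.6 FPKM in mutants and to 15.1 and 14.6 FPKM in wild types. Among the tested ones Lhx9, Barhl2 and Foxp2 had higher mutant values, and Tcf7l2 and Rorb had a negative log2 fold change. Foxp2 was the largest part of that sum, at 15.2 and 24.3 FPKM in mutants and 8.11 and 7.37 FPKM in wild types. Gbx2, the defining factor of thalamic neurons, was at 0.174 FPKM in mutant library 1 and listed at 0 in the other 3 libraries. The part of these cells in the Lhx9 values was not tested.

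**Figure D2:**
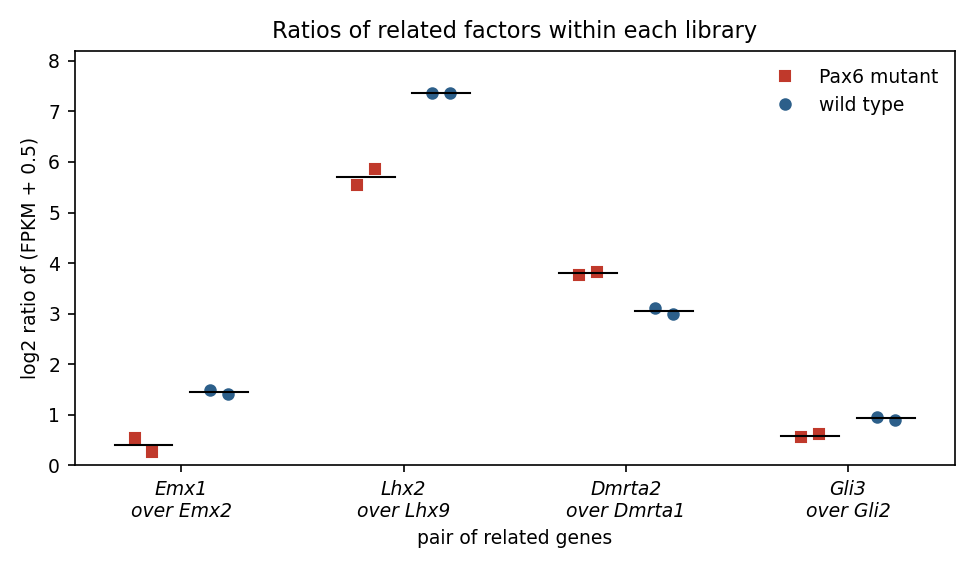
The log2 ratio of FPKM + 0.5 (vertical axis) for 4 pairs of related genes in each library, Pax6 mutants as squares left of wild types as circles, with group means (n = 2) as black lines. Emx1 over Emx2 averages 0.40 in mutants and 1.45 in wild types, and Lhx2 over Lhx9 averages 5.70 in mutants and 7.37 in wild types.

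Gli3 codes for the zinc finger factor that, mostly as a repressor, opposes hedgehog signalling in the dorsal telencephalon. The gene was at 4.93 and 5.92 FPKM in mutants, against 6.60 and 7.55 FPKM in wild types. Both mutants lay below both wild types, but the nearest values of the groups were closer than the libraries within either group. The log2 fold change of -0.36 (SE 0.16, 95% interval -0.76 to 0.05) was not called (limma adjusted p = 0.301). Gli3 (ENSMUSG00000021318) lies on the plus strand of chromosome 13 from 15463235 to 15730026 and shares 188 exon bases with Gm6556 on the other strand, which did not exceed 1.03 FPKM in any library.

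The activator-type relatives of Gli3 and the rest of the hedgehog pathway showed no call. Gli2 was at 3.20 and 3.68 FPKM in mutants and at 3.14 and 3.85 FPKM in wild types, with overlapping groups. Gli1, a readout of hedgehog activity, was at 0.913 and 0.988 FPKM in mutants and at 1.24 and 1.31 FPKM in wild types (limma adjusted p = 0.534). The Gli3 to Gli2 FPKM ratio was 1.54 and 1.61 in mutants, against 2.10 and 1.96 in wild types (log2 difference -0.34, exact two-sided permutation p = 0.33, the smallest possible). Of 11 tested genes around Gli3, limma called 0, with a median log2 fold change of -0.03, beside 0.00 over all tested genes. An unadjusted limma p under 0.05 was reached by 4 of the 11, beside 19.5% of all tested genes. Gas1, a hedgehog co-receptor gene, was at 8.81 and 9.19 FPKM in mutants, against 15.5 and 20.8 FPKM in wild types (log2 fold change -0.96, adjusted p = 0.0505).

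The Dmrt genes code for factors with a DM-type zinc finger, and 1 of the 3 members was well expressed. Dmrta2 was at 7.20 and 7.21 FPKM in mutants, against 6.44 and 6.89 FPKM in wild types. The groups did not overlap, yet the nearest values were closer than the wild types were to each other, and the gene was not called (log2 fold change 0.11, SE 0.12, 95% interval -0.21 to 0.42, limma adjusted p = 0.695). Dmrta2 (ENSMUSG00000047143) lies on chromosome 4 from 109978053 to 109983687.

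Dmrta1 and Dmrt3 stayed under the filter. Dmrta1 was at 0.0631 and 0.0461 FPKM in mutants, against 0.300 and 0.422 FPKM in wild types. Both mutants were lower, and with 1 fragment taken as above the values come to about 2.15 and 2.08 fragments in mutants and 11.7 and 12.6 in wild types. In the fit with no filter the log2 fold change was -0.63 (SE 0.14, limma adjusted p = 0.171), a value that depends on the pseudocount. Dmrt3 was at 0.0997 and 0.148 FPKM in mutants, against 0.0873 and 0.387 FPKM in wild types. Its groups overlapped, each value rests on about 1.98 to 6.71 fragments, and a difference was not detectable at this depth (log2 fold change -0.21, adjusted p = 0.726 with no filter). Dmrta1 (ENSMUSG00000043753) lies on chromosome 4 from 89679436 to 89694772 and Dmrt3 (ENSMUSG00000042372) on chromosome 19 from 25610301 to 25623921.

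The FPKM ratio of Dmrta2 to Dmrta1 was 114 and 156 in mutants, against 21.5 and 16.3 in wild types. The low Dmrta1 values set it, and on the log2(FPKM + 0.5) scale the difference was 0.74 (exact two-sided permutation p = 0.33, the smallest possible). Its size depends on the pseudocount, at 1.68 with 0.1 and 0.47 with 1.

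Otx1 codes for a homeodomain factor of cortical progenitors and, later, of deep-layer neurons. It was at 14.9 and 15.5 FPKM in mutants, against 12.2 and 13.9 FPKM in wild types. The mutants lay above the wild types by less at the nearest values than the wild types differed from each other, and the gene was not called (log2 fold change 0.22, SE 0.11, 95% interval -0.06 to 0.49, limma adjusted p = 0.353). Otx1 (ENSMUSG00000005917) lies on the minus strand of chromosome 11 from 21994764 to 22002897. Its relative Otx2, which marks choroid plexus and more caudal brain, was at 0.0692 FPKM in mutant library 1 and listed at 0 in the other 3, so no FPKM ratio is given.

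**Figure D3:**
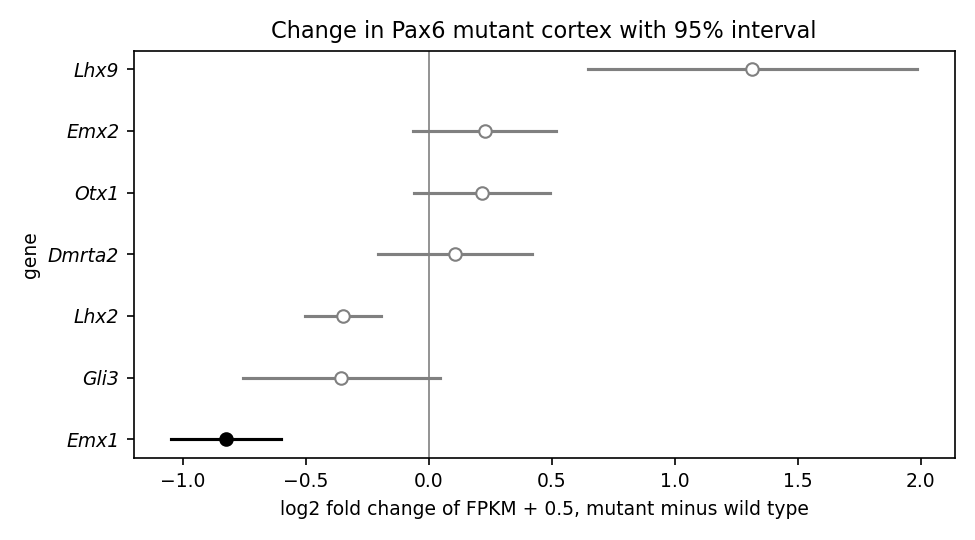
Log2 fold change of FPKM + 0.5, mutant minus wild type (horizontal axis), of the 7 tested members with unadjusted 95% intervals from limma, the called gene filled. Emx1 lies at -0.83, and Lhx2 at -0.35 and Lhx9 at 1.32 have intervals apart from 0 but adjusted p of 0.0562 and 0.0737.

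Neighbouring parts of the pallial network were measured in lists of related genes. The close relatives of the members had 7 tested genes of 15, of which 1 rose and 0 fell with a median log2 fold change of 0.18. The gene that rose was Lhx6, a LIM-homeodomain factor of interneurons from the medial ganglionic eminence, at 40.5 and 43.7 FPKM in mutants and at 27.4 and 25.4 FPKM in wild types. The cofactors that bind LIM-homeodomain proteins were all expressed, and limma called 0 of 10, with a median of -0.02. An unadjusted limma p under 0.05 was reached by 3 of the 10, beside 19.5% of all tested genes. Ldb1, the bridging cofactor of Lhx2, was at 143 and 159 FPKM in mutants and at 131 and 132 FPKM in wild types (adjusted p = 0.225).

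Signals from both edges of the pallium differed in how well they were measured. Of 17 genes of the cortical hem and roof, 8 were tested and limma called 0, with a median of -0.07. An unadjusted limma p under 0.05 was reached by 3 of the 8, beside 19.5% of all tested genes. The defining hem genes Wnt3a, Wnt8b and Lmx1a did not exceed 0.0569 FPKM in any library. In the antihem list 2 of 8 tested genes fell and 0 rose, with a median of -0.49. Both, Sfrp1 (log2 fold change -0.66) and Sfrp2 (-1.08), code for secreted Wnt inhibitors.

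Other regulators of the pallium were mostly uncalled. Of 14 tested genes 2 rose, Pax6 itself and Sp8, and 0 fell, with a median of 0.12. Sp8 was at 19.1 and 24.2 FPKM in mutants, against 2.17 and 1.40 FPKM in wild types (log2 fold change 3.29). Whether pallial or subpallial cells carry this Sp8 RNA was not tested. Pax6 RNA was at 101 and 120.3 FPKM in mutants, against 28.8 and 27.0 FPKM in wild types (limma adjusted p = 0.00466). Because Sey alters a single base and the RNA is still made, this level does not check the genotype label.

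Cascades on either side of the pallial border had several called genes each. Of 9 tested genes of the glutamatergic neurogenesis cascade 6 fell and 0 rose, with a median log2 fold change of -0.87. Neurog2, the proneural factor of pallial progenitors, was at 2.39 and 1.19 FPKM in mutants, against 27.1 and 38.2 FPKM in wild types (limma adjusted p = 0.0130). Of 11 tested regulators of subpallial progenitors 7 rose and 0 fell, with a median of 2.78. Lhx6, counted above with the close relatives, is among those that rose. Gsx2, the ventral factor, was at 9.87 and 8.79 FPKM in mutants, against 0.792 and 0.252 FPKM in wild types (adjusted p = 0.0169). Gsx2 and Six3, another tested gene of this list, passed the filter only through their mutant values, so the counts of this list partly follow from the filter.

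Genes of the cells that carry the members were measured as well. Radial glial genes, which mark the progenitors, had 2 of 14 higher (Sox2 and Sox9) and 2 lower (Aldoc and Tnc). The median log2 fold change of 0.00 hides changes in both directions, from -1.67 for Aldoc to 1.79 for Sox2. Of the 14 genes, 9 reached an unadjusted limma p under 0.05, beside 19.5% of all tested genes. The list summed to 1089 and 1083 FPKM in mutants, against 1283 and 1128 FPKM in wild types. Fabp7 was the largest part of that sum, at 526 and 525 FPKM in mutants and 719 and 540 FPKM in wild types. Cortical glutamatergic neuron genes had 6 of 9 lower and 0 higher, with a median of -0.73 and a summed FPKM of 769 and 721 in mutants, against 1232 and 1303 in wild types. Some of these lower genes, Tbr1 among them, were also counted in the glutamatergic cascade. Among the tested members, Emx1, Lhx2 and Gli3 had negative log2 fold changes. Emx2, Otx1, Dmrta2 and Lhx9 had positive ones, the largest in Lhx9 (1.32). Only Emx1 was called. The limma intervals of Gli3, Emx2, Otx1 and Dmrta2 included 0, so the direction of these genes is not settled. The part of these cell types in the members' values was not tested.

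**Figure D4:**
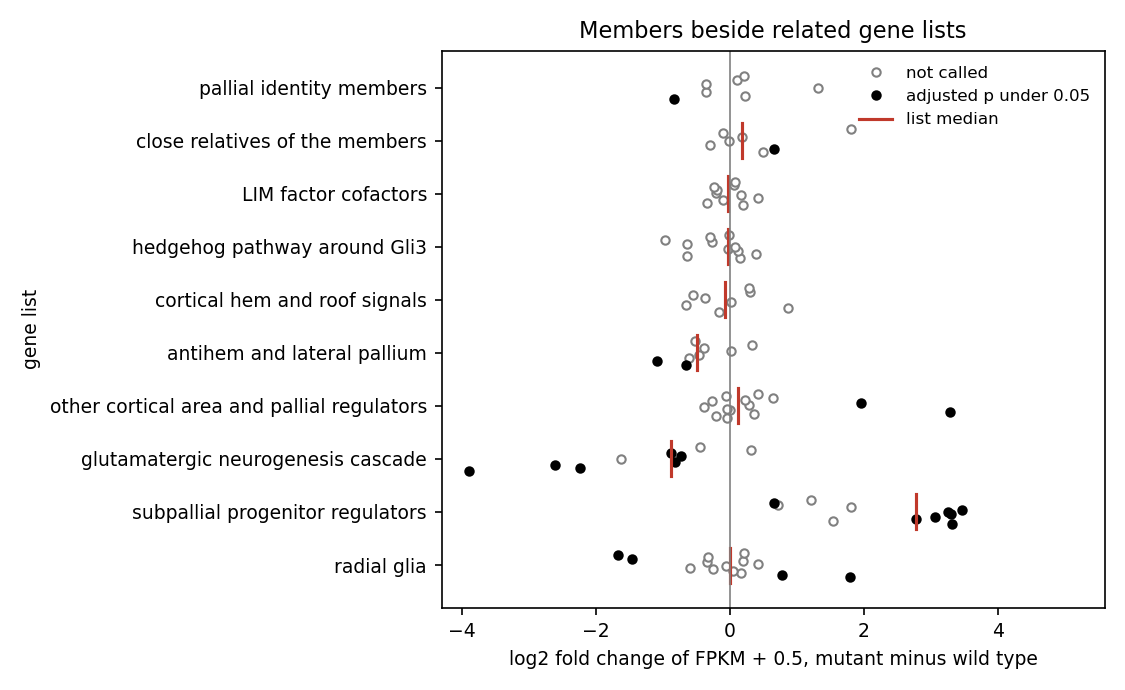
Log2 fold change of FPKM + 0.5, mutant minus wild type (horizontal axis), of each tested gene of the 9 members and of 9 related gene lists, with called genes filled and a red bar at the median of each list other than the members. The members lie between -0.83 and 1.32, subpallial regulators have a median of 2.78 and the glutamatergic cascade a median of -0.87.

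Across the whole series the libraries had total FPKM of 579698 to 593256 and 13682 to 13875 genes at 1 FPKM or more. Mutant library 1 differed in sex-linked genes, with Xist at 350.1 FPKM against 0.0788 to 0.224 FPKM in the other 3. The Y-linked gene Ddx3y was listed at 0 in mutant library 1, at 23.3 FPKM in mutant library 2 and at 17.6 and 16.5 FPKM in wild types. Mutant library 1 also had the highest meningeal sum, 61.0 FPKM, beside 20.1 in mutant library 2 and 16.5 and 12.6 in wild types. Endothelial genes summed to 72.2 and 56.4 FPKM in mutants and to 49.7 and 48.4 FPKM in wild types, and choroid plexus genes to 2.13 FPKM or less in each library. Without mutant library 1 the log2 fold change was -0.89 for Emx1, -0.35 for Lhx2 and 1.15 for Lhx9.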

How the data were processed

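RNA of dissected cortex was sequenced in 2 mutant and 2 wild-type libraries. The authors deposited 1 table of 22770 genes with FPKM per library and per group, a fold ratio (mutant over wild type) and a p-value, per the file headers. Their test and any scaling beyond FPKM are not stated. The tools TopHat2 2.0.9, Cufflinks 2.2.1 plus edgeR and the builds GRCm38.p4 and mm10 are named in the submitters' processing notes without a role or order. Symbols were taken by Ensembl identifier (22599 matched), and coordinates, counted from 1, from GENCODE M21 on GRCm38.

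FPKM were transformed to log2(FPKM + 0.5), which understates changes of low genes, and 15399 genes reaching 0.5 FPKM in 2 libraries or more were tested with limma 3.58.1 in R 4.3.3 (mean-variance trend, genotype only, Benjamini-Hochberg adjustment, threshold 0.05). The script was tested on simulated data. FPKM keeps no fragment totals, so absolute depth is unknown. From ratios of the lowest values, depth relative to wild-type library 1 was 0.866 and 1.19 in mutants and 0.783 in wild-type library 2. For genes over 1.5 kb of exon the most frequent low value was 0.0931 to 0.141 FPKM times kilobases, taken as about 1 fragment. Intervals for group differences come from the fit and rest on the spread between libraries, moderated over genes, not on each gene's own spread alone.

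Members and lists were chosen with earlier results of these data known. Besides the 9 members, at most 4 called genes with the smallest p of a list were named, uncalled genes where they are close relatives or partners of a member, and the 3 genes nearest to Emx1 (called) and Lhx2 (highest). Reln, Cacna2d2, Nrp2, Prox1, Gbx2, Barhl2, Foxp2, Tcf7l2, Rorb, Gas1, Smo, Gsx2, Six3, Wnt3a, Wnt8b and Fabp7 lie outside that rule. They, like the promoter motifs, were chosen after values were seen. Pseudocount, filter, scaling, trend, replicate block and leaving out each library were tried as alternatives.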

Additional observations from a re-analysis of the deposited data

How the results depend on the processing

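Leaving out 1 library kept the direction of all 7 tested members and of the 5 ratios but left 0 members called, with 7 to 59 genes called (6 to 31 higher, 1 to 28 lower). Each such fit leaves 1 library in a group, which is assumed to vary like the rest. With no filter on low values 61 genes were called (40 higher, 21 lower) and 0 members, and without the mean-variance trend 54 (34 higher, 20 lower) and 0 members. The cause was not tested. The other settings that kept all 4 libraries called 374 to 565 genes and 1 member, Emx1. With the replicate number as a block 374 genes were called and Emx1 had an adjusted p of 0.0393. Same-numbered libraries shared little (correlation of deviations 0.05 across genes). The labels do not say whether a number marks a litter. Whether the libraries are paired is thus not known, and the main fit used no pairing.

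The difference in the Otx1 to Otx2 log2 ratio, 0.12, turned to -0.16 with a pseudocount of 0.1, and Otx2 was listed at 0 in 3 libraries. Over all alternatives the difference ran from -2.38 to -1.28 for Lhx2 over Lhx9 and from 0.47 to 1.68 for Dmrta2 over Dmrta1, both ends set by the pseudocount. Over leave-one-out fits the ratio difference lay between -1.19 and -0.92 for Emx1 over Emx2, -1.82 and -1.50 for Lhx2 over Lhx9, 0.68 and 0.80 for Dmrta2 over Dmrta1, -0.38 and -0.30 for Gli3 over Gli2, and 0.01 and 0.24 for Otx1 over Otx2. Few fragments limit Dmrta1, Dmrt3 and the wild-type Lhx9 values, and 2 libraries a group limit every call.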

Other observations

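Zbtb18, which codes for a zinc finger repressor of cortical neurons and was singled out after its values were seen, was at 2160 FPKM in mutant library 1 and 261 FPKM in mutant library 2, against 471 and 489 FPKM in wild types (log2 fold change 0.64, limma adjusted p = 0.770).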
